A study of Capra hircus with 6 samples.

Results

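PATL2 is 1 gene of the 5154 whose RNA levels were tabulated in goat 8-cell embryos with and without knockdown of YBX1, a cold shock domain protein that binds RNA. It was chosen by its measured values: its RNA was higher in the knockdown libraries while RNAs of other RNA regulators were lower. Its own levels are therefore a description and carry no test. Zygotes made by in vitro fertilization received siRNA against YBX1 at 20 µM, or a universal negative control siRNA, by microinjection into the cytoplasm. Embryos were collected at the 8-cell stage, 72 h after injection, and pooled before lysis, so each library averages over several embryos. Polyadenylated RNA was amplified by the Smart-seq2 method, without molecular identifiers, in 3 control libraries and 3 knockdown libraries. Nothing in the labels says that the 3 libraries of a group came from separate rounds of fertilization, so the spread between them may be partly technical. YBX1 was not paired with a symbol here, and the level of the targeted gene was not analysed here.

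PATL2 encodes the oocyte member of the PAT1 family of RNA-binding proteins. In growing oocytes it sits in messenger ribonucleoprotein particles (mRNPs) that keep stored maternal mRNAs from being translated, and loss of PATL2 in women arrests oocyte maturation. Its relative PATL1 works in many cell types, where it joins the helicase DDX6 to the decapping enzymes in cytoplasmic P-bodies. Around the 8-cell stage of goats and other ruminants, maternal mRNAs are cleared and the embryonic genome becomes active.

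The tabulated levels are FPKM, fragments of a gene relative to its length and to all fragments of the library. Whole fragment numbers could be recovered from them, and the libraries then held 10354990, 12192458 and 11052666 fragments in controls 1, 2 and 3. Knockdown libraries 1, 2 and 3 held 12098896, 11203666 and 12688297. The 5154 genes took 51.0%, 56.9% and 48.6% of the control fragments, but 35.4%, 36.9% and 38.8% of the knockdown fragments. The table holds only genes that the authors called different between the groups, so most rows differ by construction. Of the 4500 genes with a mean of at least 1 FPKM, limma called 2530 lower after knockdown, 56.2%, and 1534 higher, 34.1%. A call needed an adjusted p under 0.05 and a difference in log2(FPKM + 1) beyond 1 or -1. In 57.8% of the 4500 genes every knockdown library was below every control, and in 33.8% every knockdown library was above every control. The groups thus did not overlap in 91.6% of the tested genes. The share called lower depends on the scaling. The 3 other scalings were computed from the table alone, so no genes that the authors left uncalled anchor them. Median of ratios scaling equalises a typical gene of the table. The share called lower was 38.1% with libraries scaled to equal FPKM sums, 31.5% with median of ratios and 31.9% with quantile normalization. In each of the 3, 34.4% were called higher. Shares of a gene list near these values are no result about the list. Symbols were at hand for 456 of the 5154 genes, PATL2 among them, each listed by the study with a skipped exon event that differs between the same groups, in the part of that list used here. Every gene whose level is given here was thus preselected on these libraries for such an event as well.

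Control 3 stood apart from the other controls. The distance between log2 profiles over the 4500 tested genes was 52.3 between controls 1 and 2. It was 64.5 and 71.9 from control 3 to controls 1 and 2. The knockdown libraries lay 53.0 to 56.6 from one another. Each of them was nearer to control 3, at 116 to 143, than to the other controls. TNFAIP6, a gene of expanding cumulus cells, which surround the oocyte, was the single gene of 10 cumulus markers found in the table under its symbol. Its level was 1.73, 2.38 and 20.5 FPKM in the controls and 2.14, 2.37 and 2.20 FPKM after knockdown. The high value belongs to control 3, and the part that other cells played in the results was not tested. None of 8 sperm markers was found in the table under its symbol (0 of 8).

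PATL2 (ENSCHIG00000026665) was low in every control and 7.67 times as high, by the ratio of mean FPKM, after YBX1 knockdown. It measured 2.93, 2.78 and 4.19 FPKM in controls 1, 2 and 3, and 26.0, 26.1 and 23.8 FPKM in knockdown libraries 1, 2 and 3. All knockdown libraries were above all controls, and the lowest knockdown value was 5.68 times the highest control value. The mean was 3.30 ± 0.778 FPKM in the controls and 25.3 ± 1.29 FPKM after knockdown (SD, n = 3). In these pooled embryos, fewer cells that hold an RNA and less of that RNA in each cell cannot be told apart.

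On the log2(FPKM + 1) scale, PATL2 stood at 1.97, 1.92 and 2.38 in the controls and at 4.75, 4.76 and 4.63 after knockdown. The group means were 2.09 ± 0.25 and 4.72 ± 0.07 (SD, n = 3), a difference of 2.63. Its size depends on the scaling: it was 3.25 with equal sums, 3.47 with median of ratios and 3.28 with quantiles. Control 3, the library nearest to the knockdown group, had the highest PATL2 level of the controls, and the difference was 2.77 without it. Across the genes called higher, control 3 was the highest control in 1060 of 1534, or 69.1%, so PATL2 shared this order with most of them.

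The values rest on modest fragment numbers in the controls. PATL2 collected 51, 57 and 78 fragments there and 529, 493 and 509 after knockdown, over a gene length recovered as 1683 bases. Exact 95% Poisson intervals were 2.18 to 3.85, 2.10 to 3.60 and 3.31 to 5.23 FPKM in controls 1, 2 and 3. They ran from 23.8 to 28.3, 23.9 to 28.6 and 21.8 to 26.0 FPKM in knockdown libraries 1, 2 and 3. Between the groups the intervals lay far apart. The knockdown libraries differed little from one another beyond counting error. The controls varied more than counting gives, but only through control 3, as the intervals of controls 1 and 2 nearly coincide. A level of 3 fragments corresponds to 0.140 to 0.172 FPKM, so PATL2 was above that floor in every control. Amplified reads are not independent molecules, and these intervals and floors cover counting error only.

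**Figure D1:**
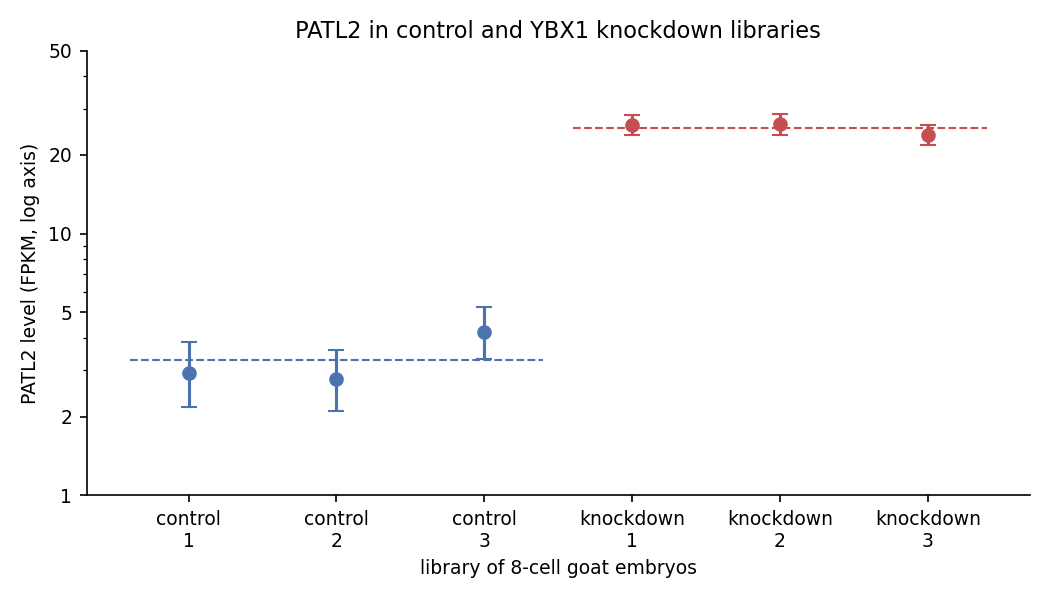
PATL2 level in FPKM on a log axis in each of the 6 libraries, with exact 95% Poisson intervals as error bars, which cover counting error only, and dashed lines at the group means. The 3 controls lie between 2.78 and 4.19 FPKM and the 3 knockdown libraries between 23.8 and 26.1 FPKM.

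PATL2 moved from the low end of the table to its upper range. As 56.2% of the tested genes were called lower, their fall adds to this move in rank. Of the tested genes, 17.6%, 20.3% and 26.5% were below PATL2 in controls 1, 2 and 3, against 71.3%, 70.7% and 66.8% in knockdown libraries 1, 2 and 3. Its difference of 2.63 exceeded the median of the genes called higher, 1.72, and was surpassed by 79 of the 4500 tested genes. This number was 38 and 50 without control 2 and knockdown 3, and 142 and 151 without control 3 and knockdown 2. Among the 456 genes with a symbol, 1 gene had a larger difference: CCDC153, with 2.95, which is named here after its value was seen. Leaving out a library changed that number too, from 0 without control 2 or knockdown 3 to 3 without control 1 or control 3 and 6 without knockdown 2, and median of ratios scaling gave 2. The median over all tested genes was -1.24, and the difference of PATL2 from that median was 3.86.

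In FPKM as tabulated, the PATL2 levels were also close to each other after knockdown, and less so in the controls. No spread is given here under another scaling. The coefficient of variation was 5.09% over the knockdown libraries, where counting alone gives 4.43%, and 23.6% over the controls, where counting gives 12.7%. Controls 1 and 2 stood at 2.93 and 2.78 FPKM, so the control spread rests on control 3, at 4.19 FPKM. The pooled SD of PATL2 on the log2 scale was 0.18, against a median of 0.51 over the tested genes. A smaller pooled SD was found for 2.31% of the tested genes, and for 40 of the 1534 genes called higher.

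Partners of PAT1 proteins and other proteins of repressor mRNPs were represented by 6 genes of 36 listed, those found in the table under a symbol. Other listed genes may be among the rows without a symbol, here and in the lists that follow. By limma, DDX6, LARP4, YTHDF3 and G3BP1 were called lower and ELAVL2 higher, and FXR1 was not called. Their median log2 difference was -1.32, beside -1.24 over all tested genes. Over all tested genes 56.2% were called lower and 34.1% higher, and nothing is read from the counts, since PATL2 was picked on this contrast. Median of ratios scaling left 1 of the 6 called lower and 1 called higher. PATL1 and the CPEB, ZAR1 and YBX2 genes of the same list were not analysed here.

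DDX6, the P-body helicase that PATL1 joins to the decapping enzymes, measured 18.2, 16.4 and 7.59 FPKM in the controls and 6.43, 2.86 and 3.70 FPKM after knockdown. The groups did not overlap, although control 3 came close to knockdown 1, and the log2 difference was -1.47 (SE 0.46). LARP4, which binds poly(A) tails and stabilises mRNAs, measured 243, 388 and 151 FPKM in the controls and 9.67, 33.1 and 22.2 FPKM after knockdown. It had the largest difference of the list, -3.58 (SE 0.51), and again control 3 was the lowest control. YTHDF3, a reader of N6-methyladenosine, measured 46.0, 97.9 and 64.8 FPKM in the controls and 14.8, 13.5 and 23.6 FPKM after knockdown, a log2 difference of -1.92 (SE 0.43). G3BP1, a scaffold of stress granules, measured 359, 302 and 329.9 FPKM in the controls and 140.1, 135 and 167 FPKM after knockdown. Its libraries varied little within a group, and the log2 difference was -1.16 (SE 0.37).

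ELAVL2, a Hu family protein that binds AU-rich and U-rich mRNA elements and is abundant in oocytes, was the 1 listed gene that rose with PATL2. It measured 33.3, 21.1 and 28.1 FPKM in the controls and 109.8, 70.5 and 88.1 FPKM after knockdown, a log2 difference of 1.67 (SE 0.39). FXR1, a member of the fragile X protein family, measured 218, 274 and 121 FPKM in the controls and 128, 140 and 87.6 FPKM after knockdown. Its groups overlapped through control 3, and limma gave a difference of -0.73 with an adjusted p of 0.118. The authors' own comparison had called FXR1, like every row of the table. Without control 3 the difference was -1.07 and the adjusted p 0.0244, whereas median of ratios scaling turned it to 0.27. The calls of DDX6 and G3BP1 were lost under each of the 3 other scalings, with differences of -0.85, -0.60 and -0.80 for DDX6 and -0.45, -0.17 and -0.47 for G3BP1 with equal sums, median of ratios and quantiles. The call of YTHDF3 was lost under median of ratios, at -0.96, while LARP4 stood at -2.61 and ELAVL2 at 2.64. These scalings shifted the median of all tested genes by 0.56, 0.79 and 0.72, and PATL2 then differed from it by 3.92, 3.91 and 3.80.

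The decapping enzyme, which removes the cap of an mRNA before its decay from the 5′ end, was represented by both of its core subunits. Of 16 listed genes of decapping and 5′ to 3′ decay, 2 were in the table under a symbol, and both were called lower, with a median log2 difference of -2.02. Over all tested genes 56.2% were called lower and the median was -1.24, so both genes being lower is no result about the list. DCP2, the catalytic subunit, measured 177, 337 and 268 FPKM in the controls and 39.4, 66.8 and 46.6 FPKM after knockdown, a difference of -2.32 (SE 0.41). DCP1A, its activator, measured 103, 126 and 91.4 FPKM in the controls and 24.9, 39.1 and 32.0 FPKM after knockdown, a difference of -1.72 (SE 0.38). Neither gene overlapped between the groups. The call of DCP1A was lost under median of ratios scaling, at -0.74, and that of DCP2 was kept, at -1.33.

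RNAs for 2 enzymes that extend mRNA tails were also lower after knockdown. Of 26 listed genes, 3 were in the table under a symbol, of which 2 were called lower and 1 was not called, beside 56.2% lower over all tested genes. The median log2 difference of the 3 was -2.04, beside -1.24. TENT2, the cytoplasmic poly(A) polymerase also known as GLD2 that lengthens tails of stored oocyte mRNAs, measured 261, 285 and 126 FPKM in the controls and 45.4, 42.7 and 55.9 FPKM after knockdown. The difference was -2.12 (SE 0.42). TUT7, which adds uridines to short tails and marks mRNAs for decay, measured 137, 126 and 44.9 FPKM in the controls and 20.7, 23.7 and 20.7 FPKM after knockdown, a difference of -2.04 (SE 0.47). Control 3 was the lowest control for both genes and still above every knockdown library. PABPC1, the main cytoplasmic poly(A)-binding protein, measured 153, 104 and 54.7 FPKM in the controls and 53.5, 43.6 and 56.4 FPKM after knockdown. Control 3 overlapped the knockdown libraries here. PABPC1 was called by the authors, like every row, but in limma the difference of -0.90 had an adjusted p of 0.0683. It was -1.30 with an adjusted p of 0.0101 without control 3, and 0.089 under median of ratios scaling. The same scaling brought TENT2 to -1.13 and TUT7 to -1.06, with adjusted p of 0.0266 and 0.047 in limma. Across these lists of mRNA regulators, 11 of 78 genes were found in the table under a symbol, with 8 called lower, 1 called higher and 2 not called, beside 56.2% lower and 34.1% higher over all tested genes. Their median log2 difference was -1.72, beside -1.24. The groups did not overlap in 9 of the 11, beside 91.6% of all tested genes.

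**Figure D2:**
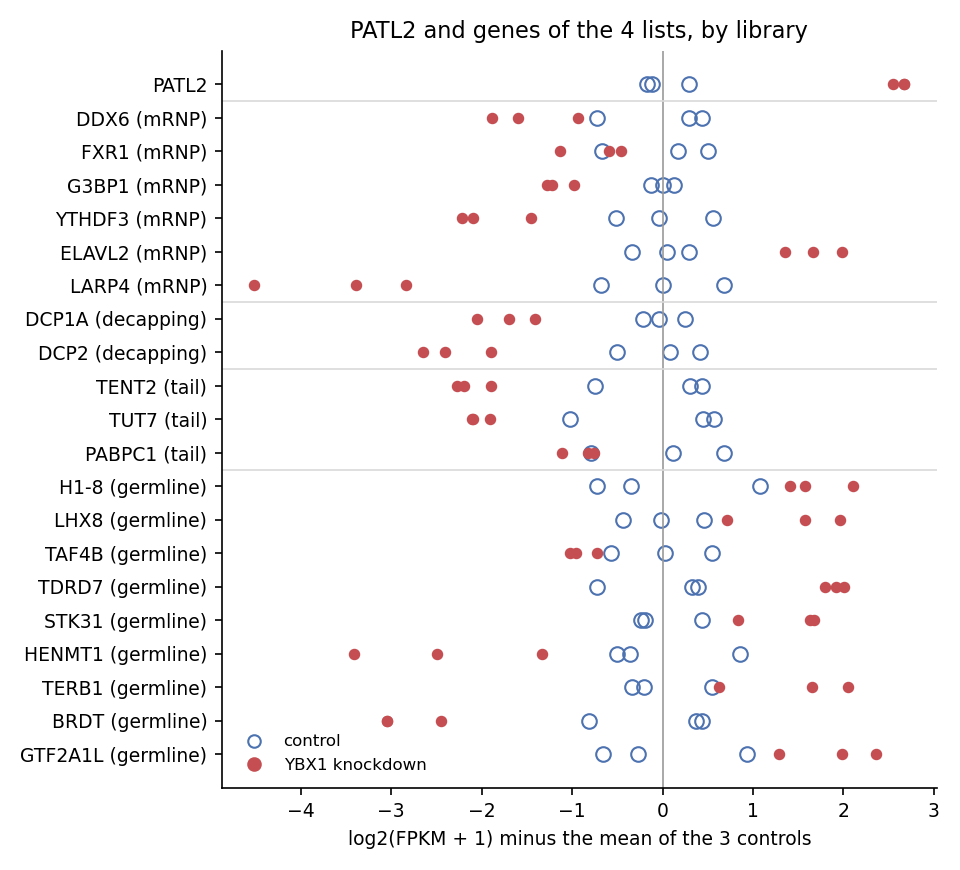
Difference of each library from the mean of the 3 controls in log2(FPKM + 1), for PATL2 and the 20 genes of the 4 lists found in the table under a symbol, with controls as open circles and knockdown libraries as filled circles. PATL2 lies more than 2 log2 units above its controls in every knockdown library, while most mRNP, decapping and tail genes lie to the left of theirs, of which FXR1 and PABPC1 turn under median of ratios scaling.

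The level of PATL2 was also set against these genes within each library. DDX6, DCP2, DCP1A and LARP4 were called lower and PATL2 was picked for rising while such genes fell, so the direction of these ratios follows from the choice and they are a description. A ratio of FPKM inside a library is free of any scaling factor applied to that library as a whole. PATL2 stood at 16.1%, 16.9% and 55.2% of the DDX6 level in the controls and at 404%, 915% and 644% of it after knockdown. PATL2 was below DDX6 in each control and above it in each knockdown library. Relative to DCP2, PATL2 stood at 1.65%, 0.825% and 1.57% in the controls and at 65.9%, 39.2% and 51.1% after knockdown. Against DCP1A the level of PATL2 was 2.84%, 2.20% and 4.59% in the controls and 104%, 66.8% and 74.5% after knockdown. PATL2 remained below DCP2 in all 6 libraries, and it exceeded DCP1A only in knockdown 1. Compared with LARP4, PATL2 went from 1.20%, 0.716% and 2.78% to 269%, 78.9% and 107%.

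ELAVL2 and H1-8 rose with PATL2, so a smaller change of these ratios follows from their choice. PATL2 stood at 8.80%, 13.2% and 14.9% of the ELAVL2 level in the controls and at 23.7%, 37.1% and 27.0% after knockdown. Relative to H1-8, it stood at 1.16%, 1.43% and 0.616% in the controls and at 2.70%, 1.88% and 2.77% after knockdown. PATL2 thus rose by a larger factor than either gene, and in every library it remained the least abundant of the 3.

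PATL2 is itself a gene of the germ line, and other genes active in oocytes or germ cells moved in both directions. Of 32 listed oocyte and germline genes, 9 were in the table under a symbol, with 6 called higher, 2 called lower and 1 not called, beside 34.1% higher and 56.2% lower over all tested genes. Their median log2 difference was 1.42, beside -1.24. The groups did not overlap in all 9, beside 91.6% of all tested genes, and as the contrast chose PATL2, nothing is read from these counts. The difference of PATL2, 2.63, was larger than that of each of the 6 genes called higher. Genes known for the oocyte such as GDF9, BMP15, NOBOX and the zona pellucida genes were not analysed here.

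H1-8, the linker histone of oocytes and early embryos, measured 252, 194 and 680 FPKM in the controls and 963, 1393 and 859 FPKM after knockdown, more than any other listed germline gene in each knockdown library. The log2 difference was 1.70 (SE 0.50), and control 3 was far above the other controls. LHX8, a homeobox transcription factor needed for oocyte differentiation, measured 23.8, 12.3 and 16.8 FPKM in the controls and 52.6, 28.6 and 69.1 FPKM after knockdown, a difference of 1.42 (SE 0.45). TDRD7, a Tudor domain protein of germ granules, measured 37.7, 17.7 and 39.5 FPKM in the controls and 115, 123 and 106 FPKM after knockdown. Its difference was 1.91 (SE 0.42), and its knockdown libraries lay close together, as did those of PATL2. GTF2A1L, a germ cell form of the transcription factor TFIIA, measured 85.7, 65.6 and 199 FPKM in the controls and 415, 254 and 536 FPKM after knockdown, a difference of 1.88 (SE 0.49). TERB1, which ties telomeres to the nuclear envelope in meiosis, measured 29.8, 17.2 and 15.6 FPKM in the controls and 86.3, 31.4 and 65.3 FPKM after knockdown. Its difference was 1.45 (SE 0.47), and knockdown 2 was close to control 1. STK31, a kinase-like protein of germ cells, measured 19.0, 11.8 and 11.4 FPKM in the controls and 46.0, 25.3 and 44.6 FPKM after knockdown, a difference of 1.38 (SE 0.42). Under median of ratios scaling the differences were larger, at 2.70 for H1-8, 2.37 for LHX8, 2.88 for TDRD7, 2.87 for GTF2A1L, 2.41 for TERB1 and 2.33 for STK31. The calls of TERB1 and LHX8 each hung on 1 library. Without knockdown 1 the difference of TERB1 was 1.14 with an adjusted p of 0.0594 in limma, and without knockdown 3 that of LHX8 was 1.14 with an adjusted p of 0.0528.

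BRDT and HENMT1 went the other way from PATL2. BRDT, a bromodomain protein known for its role in spermatogenesis, measured 384, 402 and 168 FPKM in the controls and 53.4, 34.9 and 35.0 FPKM after knockdown, a difference of -2.85 (SE 0.45). HENMT1, the methyltransferase that protects the ends of piRNAs, measured 42.5, 17.7 and 16.0 FPKM in the controls and 3.27, 1.25 and 8.52 FPKM after knockdown. Its difference was -2.41 (SE 0.57), and its lowest library held 17 fragments. TAF4B, a germ cell subunit of the general transcription factor TFIID, is named here after its values were seen, since it had the smallest difference of the list. It measured 19.8, 13.6 and 8.67 FPKM in the controls and 7.70, 6.06 and 6.35 FPKM after knockdown. The difference was -0.90 with an adjusted p of 0.0561 in limma, though the authors had called it, like every row. Without control 3 the difference was -1.18 with an adjusted p of 0.0168, and under median of ratios scaling it was 0.0049, with BRDT at -1.86 and HENMT1 at -1.55.

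The genes whose pattern came nearest to that of PATL2 were sought among the 456 genes with a symbol. Likeness was measured as the Euclidean distance over the 6 libraries between log2(FPKM + 1) values, after each gene's own mean was subtracted. The median distance to PATL2 was 1.52 over the genes called higher and 4.90 over all tested genes. NAP1L4, a histone chaperone, was the nearest at 0.650, followed by PFDN1, a subunit of the prefoldin chaperone, at 0.853 and OMA1, a protease of the inner mitochondrial membrane, at 0.925. AADACL3, a member of the arylacetamide deacetylase family, followed at 1.003 and CTTN, the actin-binding protein cortactin, at 1.06. Genes without a symbol came nearer still, 14 of them nearer than NAP1L4, with a smallest distance of 0.445. These 5 genes were selected by their likeness to PATL2, so their direction is given by the choice and carries no test.

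NAP1L4 measured 8.64, 5.55 and 13.4 FPKM in the controls and 56.6, 56.9 and 39.6 FPKM after knockdown, a log2 difference of 2.40. Control 3 was the highest control, as for PATL2. OMA1 measured 7.60, 3.64 and 7.16 FPKM in the controls and 51.6, 26.7 and 41.7 FPKM after knockdown, a difference of 2.53. PFDN1 was far more abundant, with 503, 418 and 880 FPKM in the controls and 3037, 2539 and 4597 FPKM after knockdown. AADACL3 was the 1 gene of the 5 below PATL2 in every library, with 1.65, 0.829 and 2.17 FPKM in the controls and 9.50, 8.71 and 6.60 FPKM after knockdown. CTTN measured 5.62, 4.38 and 10.8 FPKM in the controls and 23.7, 26.9 and 34.3 FPKM after knockdown, a difference of 1.95. Median of ratios scaling raised the differences of NAP1L4, OMA1, AADACL3 and CTTN to 3.32, 3.42, 2.59 and 2.84, beside 3.47 for PATL2. PFDN1 stood at 3.52 under that scaling and so passed PATL2. The choice of these neighbours depended on single libraries. Of the 5 genes, 2 were among the nearest without control 1, 3 without control 2 or control 3, and 1, OMA1, without knockdown 2.

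**Figure D3:**
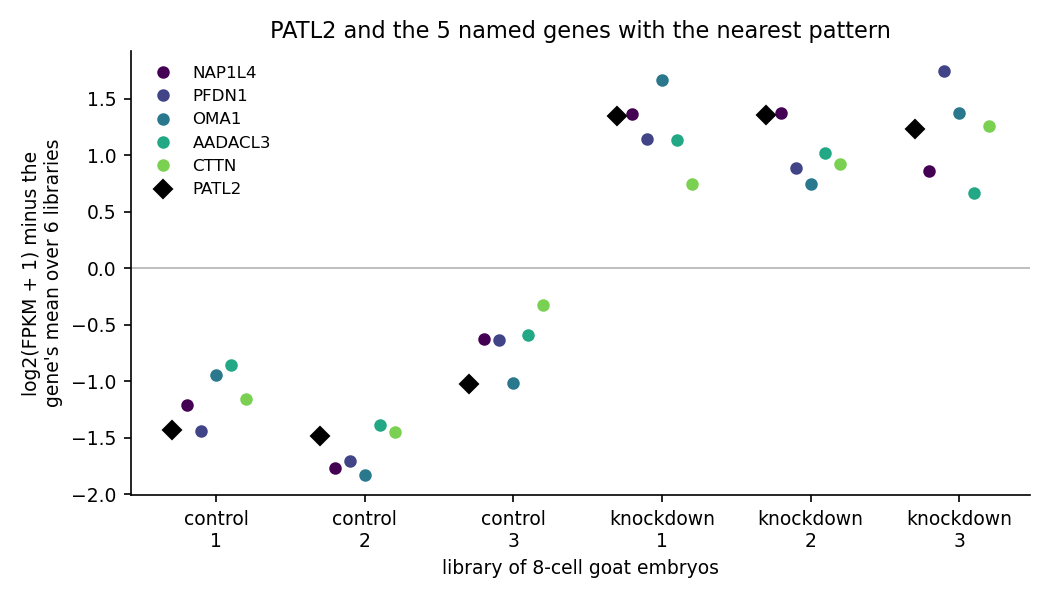
log2(FPKM + 1) minus each gene's mean over the 6 libraries, for PATL2 as black diamonds and for the 5 named genes nearest to it as coloured circles, by library. All 6 genes lie below 0 in the 3 controls and above 0 in the 3 knockdown libraries, and PATL2 varies least among the knockdown libraries.

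In the goat annotation ARS1.2, PATL2 lies on chromosome 10 between LOC102168547 and SPG11, a gene of lysosome renewal. B2M, the light chain of class I histocompatibility molecules, TRIM69 and TERB2 follow on the side of LOC102168547. TERB2 encodes the meiotic partner of TERB1, the germline gene that rose with PATL2. EIF3J and CTDSPL2 follow on the side of SPG11. Levels of these neighbours were not analysed here, so whether PATL2 rose alone in its region was not tested.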

How the data were processed

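Paired-end reads were trimmed by the authors, mapped with HISAT2 on the ARS1 assembly, and assigned to genes with featureCounts where they mapped uniquely. The authors deposited FPKM values for 6 libraries, together with 4 columns of their own DESeq2 comparison (log2 fold change, p-value, adjusted p-value and direction), which were not used. Every row passes the authors' thresholds. Libraries were grouped by their titles. The library does not mark strand, so fragments of overlapping antisense genes cannot be told apart.

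Gene lengths and library totals were recovered by requiring whole fragment numbers, which held for 5154 of 5154 genes within 0.00063 of a fragment. The symbols of 456 genes, PATL2 among them, came from 1999 skipped exon events, part of those that the study lists as differential between the same groups. These name 1130 identifiers, and all other genes have no symbol here. Differences were fitted on log2(FPKM + 1) with limma 3.58.1 in R 4.3.3 (eBayes with trend), over the 4500 genes with a mean of at least 1 FPKM, with Benjamini-Hochberg adjustment. As the adjustment runs over genes already called by the authors, it is mild. The log scale with a pseudocount of 1 understates changes of low genes. limma was checked on simulated data. Poisson intervals used scipy 1.17.1.

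Members and lists were chosen with earlier results of these data known. Named were PATL2, the 8 genes per list with the largest difference, the 5 nearest patterns, and neighbours. Alternatives were another pseudocount, other filters, 3 other scalings, a replicate block, no trend, and leaving out each library.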

Additional observations from a re-analysis of the deposited data

How the results depend on the processing

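The PATL2 difference of 2.63 lay between 2.54 and 2.77 when each library was left out. A filter on other genes or a balanced replicate block cannot move it (2.63 in each). It was 2.92 with a pseudocount of 0.1, 3.25 with equal FPKM sums, 3.47 with median of ratios and 3.28 with quantiles. Genes above PATL2 numbered 38 to 151 when a library was left out and 136 with a pseudocount of 0.1. Of the mRNP list, 5 genes were called, against 3, 2 and 3 with equal sums, median of ratios and quantiles. Of the decapping list, 2 were called, against 1 with median of ratios. Under median of ratios, computed only from genes that the authors called different, FXR1 turned to 0.27, PABPC1 to 0.089 and TAF4B to 0.0049. Over all tested genes 2530 were called lower and 1534 higher, 62.2% lower, against 1713, 1416 and 1434 lower with 1549 higher in each of the 3 scalings, 52.5%, 47.8% and 48.1% lower. The genes of the table took a smaller share of the knockdown fragments, and scaling on these genes alone evens out such a difference. Why their share was smaller was not tested. Of the values of named genes under the alternatives, 333 kept their direction and side of the threshold, 10 lost a call, 3 gained one and 3 turned. Of the 5 nearest genes, 1 to 4 were retained when a library was left out, and 4 or 5 otherwise. With the replicate block 2542 genes were called lower and 1535 higher, and the list counts stayed at 5, 2, 2 and 8. Deviations of libraries with the same number correlated at 0.095, 0.14 and 0.163, each library best with its own number. This is a hint that the numbers pair the libraries, but such weak correlations do not settle it. The block does not enter the search for the nearest genes, and eBayes without trend does not enter the PATL2 difference, as neither uses a test. With 51 to 78 fragments of PATL2 in a control, counting gives a coefficient of variation of 12.7%, against 23.6% measured, which rests on control 3.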
